A study of Mus musculus with 9 samples.

Results

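The myogenic regulatory factors and their MEF2 and Six4 partners are 8 genes of this series, Myod1, Myf5, Myf6, Myog, Mef2a, Mef2c, Mef2d and Six4, taken as every probe whose gene name in the scanner files was one of these symbols. They had 12 probes on the array, of which 11 passed the filter on background, and 7 of the 8 genes were among the 21992 genes tested. Myf5 did not pass and is described without a place among the tested genes. Expression was measured in C2C12 cells, an established, clonal mouse myoblast line that fuses into myotubes when serum is withdrawn, so that all samples share 1 genome. The cells received vehicle, 1 nM or 10 nM of calcitriol, which is 1,25-dihydroxyvitamin D3, the hormone that binds the vitamin D receptor, for 72 h. Each group had 3 biological replicates per the series' design text, each on its own 1-colour array. The series' title speaks of myotubes, and the labels do not say how far the cells had differentiated when treatment started.

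Myod1, Myf5, Myf6 and Myog encode the basic helix-loop-helix factors of skeletal muscle, which pair with E proteins and bind E-boxes in the control regions of muscle genes. Myod1 and Myf5 mark committed myoblasts, Myog acts when myoblasts leave the cell cycle and fuse, and Myf6 (MRF4) is highest in maturing fibres. Mef2a, Mef2c and Mef2d encode MADS-box factors that act with them on the same genes, and Six4 encodes a homeodomain factor that binds MEF3 sites, one of which lies in the Myog promoter.

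Levels are log2 processed signals minus the array's 75th percentile, so a value of 0 is a probe as bright as that percentile, and levels of single genes are compared only within a probe. The 75th percentile was 2826 to 3389 intensity units, and 67.1% to 79.2% of spots were well above background on 8 arrays. On the array of vehicle replicate 3 that share was 96.4%, its median signal was 660 against 216 to 315 elsewhere, and 6124 of its spots were marked non-uniform against 8 to 56 elsewhere. The arrays lay on 3 slides. Slide 1 held vehicle replicates 1 and 2 and replicate 1 of each dose, slide 2 held vehicle replicate 3, 1 nM replicates 2 and 3 and 10 nM replicate 2, and slide 3 held 10 nM replicate 3 alone. The muscle markers Des, Myh3, Ckm, Acta1 and Cdh15 were well above background on all 9 arrays, as were Myod1 and Myog.

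The probes set what each value can see. Myod1, Myog and Myf5 were each printed as 10 spots per array, and the other 9 probes once. Apart from 1 Mef2c and 1 Mef2d probe, each probe covered 60 unbroken bases of the genome. The first 30 bases of the probes of the 4 bHLH factors are shown because their base composition differs. Their GC contents were 38.3% for Myod1, 35% for Myog, 38.3% for Myf6 and 15% for Myf5. Only 24 of 39429 probes (0.0609%) had a GC content as low as that of the Myf5 probe, against a median of 41.7%.

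Myod1 probe, mm9 chr7:53633956-53634015: ttttgttgttgttgttgtagtccttcagtt

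Myog probe, mm9 chr1:136188874-136188933: atcttgggaaccttccagtgctttgtgtat

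Myf6 probe, mm9 chr10:106930237-106930296, minus strand: tttaaaaagaaacttctcaccacctcaagt

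Myf5 probe, mm9 chr10:106919974-106920033, minus strand: ttgtatatgccttaaaataacttgataaat

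The Myf5 and Myf6 probes start 10263 bases apart, and in the RefSeq gene table the 2 genes are neighbours among protein-coding genes. The Mef2c probe and 1 Mef2d probe are shown whole because their 60 bases lie over 2238 and 347 bases of the genome, so each joins exons and reads spliced RNA.

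Mef2c probe, mm9 chr13:83772788-83775025: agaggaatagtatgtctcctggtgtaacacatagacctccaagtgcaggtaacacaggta

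Mef2d probe A_51_P504672, mm9 chr3:87972214-87972560: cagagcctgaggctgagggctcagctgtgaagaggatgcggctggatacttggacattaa

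The RefSeq promoter table (GRCm38.p6) held 9 windows for 6 of the 8 genes, and the 250 bases before each start were searched on both strands. The motifs were the E-box CANNTG, the MEF3 site TCAGGTT, and by name the MEF2, CArG and DR3 vitamin D response element consensus sequences. Over all 32851 windows of that length, 66.2% held an E-box, 3.49% a MEF3 site, 2.92% a MEF2 consensus, 1.47% a CArG box and 0.0396% a DR3 element. The windows of Myog and Six4, the members lower at 10 nM, and of Mef2a, the member with the smallest adjusted p at 1 nM, are shown with matches in capitals.

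Myog, GRCm38.p6 chr1:134289754-134290003, plus strand: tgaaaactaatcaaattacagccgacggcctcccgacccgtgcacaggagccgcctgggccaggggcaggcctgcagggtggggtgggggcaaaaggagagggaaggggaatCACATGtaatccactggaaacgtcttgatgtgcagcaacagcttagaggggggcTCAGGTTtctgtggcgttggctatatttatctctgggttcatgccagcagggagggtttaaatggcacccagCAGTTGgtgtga

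Six4, first listed start, GRCm38.p6 chr12:73113246-73113495, minus strand: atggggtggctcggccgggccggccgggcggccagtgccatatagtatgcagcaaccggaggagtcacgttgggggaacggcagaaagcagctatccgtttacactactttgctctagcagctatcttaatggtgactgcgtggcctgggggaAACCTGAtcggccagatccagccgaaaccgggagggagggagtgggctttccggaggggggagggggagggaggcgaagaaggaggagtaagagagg

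Mef2a, GRCm38.p6 chr7:67372859-67373108, minus strand: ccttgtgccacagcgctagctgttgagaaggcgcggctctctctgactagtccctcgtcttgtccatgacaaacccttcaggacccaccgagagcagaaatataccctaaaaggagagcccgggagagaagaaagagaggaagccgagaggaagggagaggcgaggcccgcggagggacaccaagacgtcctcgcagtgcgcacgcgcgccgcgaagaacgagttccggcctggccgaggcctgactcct

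Myog had 2 E-boxes, starting 138 and 12 bases before the start, and 1 MEF3 site starting 84 bases before it. Six4 had 1 MEF3 site on the other strand, starting 97 bases before its start. The Mef2a window held none of the 5 motifs. Among the other windows, the first Mef2c start had 2 E-boxes and 1 MEF3 site and the third had 1 E-box. No window of these genes held a full match to the MEF2, CArG or DR3 consensus. The MEF2 pattern searched was YTAWWWWTAR, where Y is C or T, W is A or T and R is A or G. The Myog window holds ctatatttat, which departs from that pattern only at its last base. Near matches were not counted in any window. These are matches of letters, with no measurement of binding.

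At 1 nM, 4 of the 7 tested genes rose against vehicle, Myod1, Myf6, Mef2a and Mef2c, and 0 fell. Of all genes tested, 11.8% rose and 11.8% fell at that dose (limma, Benjamini-Hochberg adjusted p under 0.05). At 10 nM, 3 of 7 rose, Myod1, Myf6 and Mef2a, and 2 fell, Myog and Six4, against 15.4% and 14.7% of all genes. Between the doses 0 of 7 were called in either direction, against 1.60% of all genes called higher and 2.21% called lower at 10 nM than at 1 nM. The 3 arrays of each dose did not overlap those of vehicle in 6 of 7 genes at 1 nM and 5 of 7 at 10 nM, where 42.4% and 43.8% of all genes did not overlap. Between the doses 3 of 7 did not overlap, all lower at 10 nM, against 24.0% of all genes. The median difference of the 7 genes was 0.52 at 1 nM and 0.29 at 10 nM on the log2 scale, and over all genes it was -0.09 and -0.11. Both doses were set against the same 3 vehicle arrays, so their differences are not independent. In RNA from whole cultures, fewer cells of a kind and less RNA per cell cannot be told apart.

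**Figure D1:**
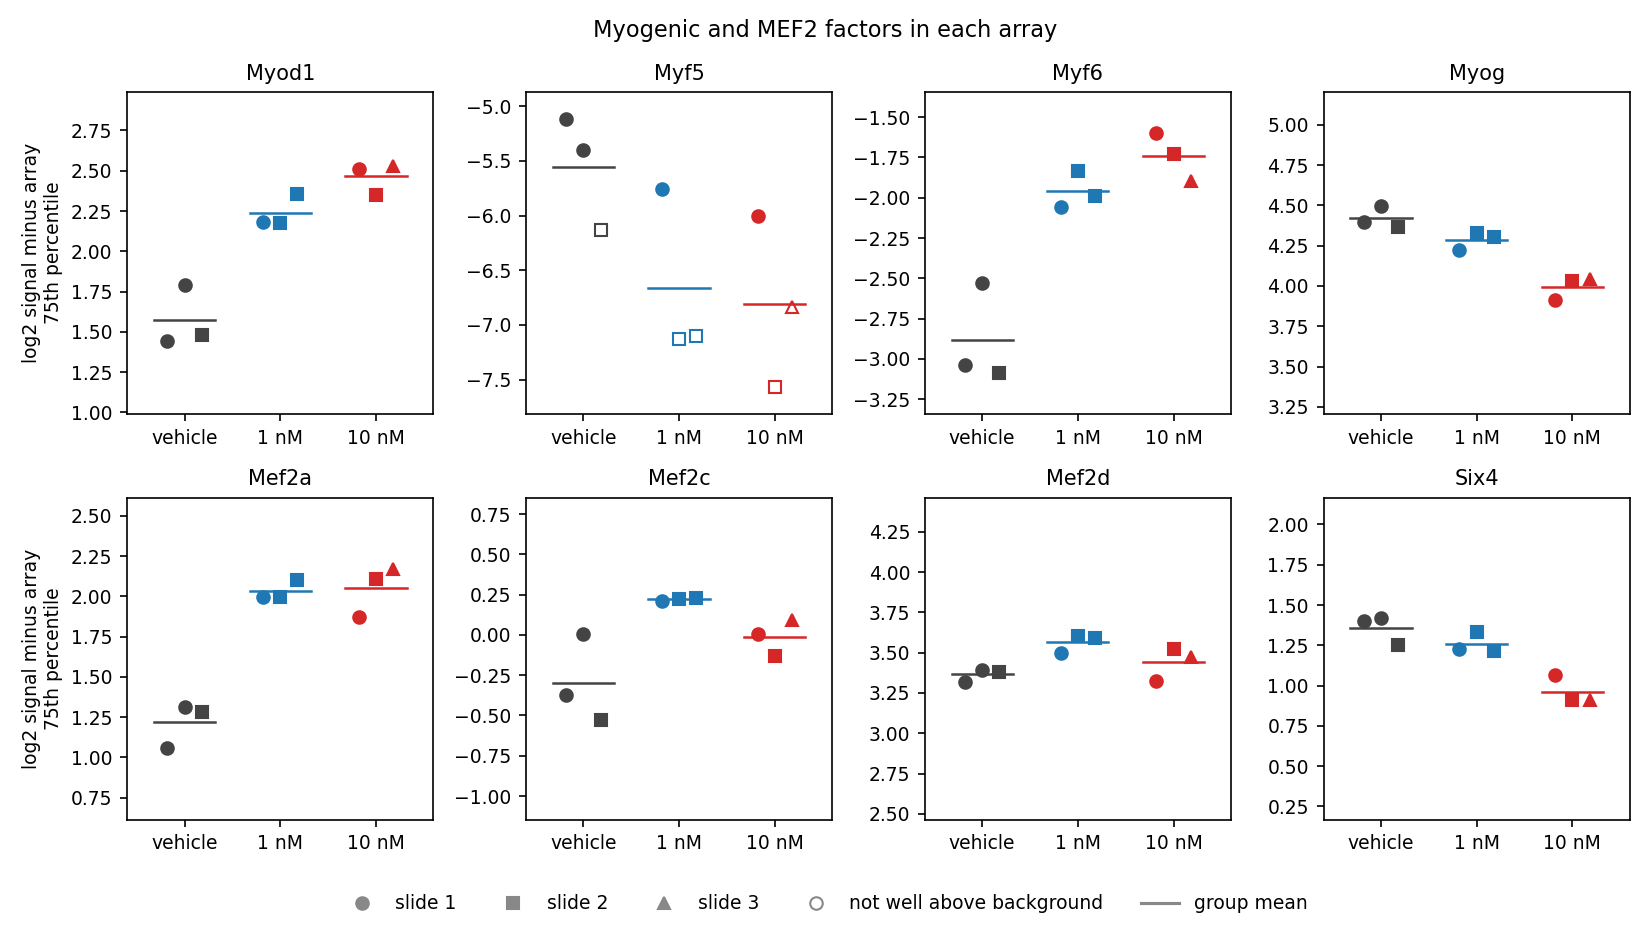
Level of each factor on each array (log2 signal minus the array's 75th percentile), grouped by vehicle, 1 nM and 10 nM, with the slide as the symbol, open symbols for arrays not well above background and lines at group means; each axis has its own range. Myod1, Myf6 and Mef2a lie higher on all treated arrays than on any vehicle array, Myog and Six4 lie lowest at 10 nM on this scale (both reverse when arrays are scaled to their median), and open symbols occur in the Myf5 panel alone.

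Myod1 encodes MyoD, the factor that can turn other cell types into muscle. Its level was 1.45, 1.79 and 1.48 in vehicle replicates 1 to 3, 2.18, 2.18 and 2.35 at 1 nM, and 2.51, 2.35 and 2.53 at 10 nM. All 6 treated arrays were above the 3 vehicle arrays, and the 2 doses overlapped at 2.35. The rise was 0.66 (SE 0.11, 1.59-fold, limma adjusted p = 0.00415) at 1 nM and 0.89 (1.86-fold, adjusted p = 0.000689) at 10 nM. The SD over the 10 spots of an array was 0.04 to 0.16, and the SD between the 3 vehicle arrays was 0.19. Spots of an array are repeats of 1 probe and not replicates of a dose. The step from 1 nM to 10 nM was 0.23 (95% interval -0.03 to 0.49, adjusted p = 0.528). Within slide 1, where each dose had 1 array, the differences were 0.56 and 0.90, with adjusted p = 0.256 and 0.0677. Scaled to the array median, the difference at 1 nM was 1.15 and was not called (adjusted p = 0.0684).

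Myf6 encodes MRF4. It read -3.04, -2.53 and -3.09 in vehicle, -2.06, -1.83 and -1.99 at 1 nM and -1.60, -1.73 and -1.90 at 10 nM. The highest vehicle array lay below the lowest treated array, and the dose groups overlapped. Myf6 rose by 0.93 (SE 0.16, 1.90-fold, limma adjusted p = 0.00490) at 1 nM and 1.14 (2.21-fold, adjusted p = 0.00128) at 10 nM, the largest differences among the 7 genes in this fit. The probe was well above background on all 9 arrays. After quantile normalization the differences were 1.68 and 1.88, over 1.5 times as large, but with adjusted p = 0.102 and 0.0587. Within slide 1 they were 0.73 and 1.19, also not called (adjusted p = 0.227 and 0.0538).

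Myf5 lies beside Myf6 in the genome and marks committed myoblasts and satellite cells. Its probe read -5.12, -5.40 and -6.14 in vehicle, -5.76, -7.13 and -7.10 at 1 nM, and -6.00, -7.57 and -6.84 at 10 nM. The groups overlapped, and the values divided by slide. The 4 arrays of slide 1 read -6.00 to -5.12 with all 10 spots well above background on each. The 5 arrays of slides 2 and 3 read -7.57 to -6.14, and 5 of 10 spots were well above background on vehicle replicate 3, 3 and 2 on the 1 nM arrays and 0 on each 10 nM array. Within slide 1 both vehicle arrays were above the 1 nM array, which was above the 10 nM array, and within slide 2 the arrays fell in the same order. With the filter left off, the differences were -1.11 (limma adjusted p = 0.259) at 1 nM and -1.25 (adjusted p = 0.171) at 10 nM. With the slide as a block, chosen after seeing the data, they were -0.70 (adjusted p = 0.0793) and -1.03 (adjusted p = 0.0284). On slide 2 the 4 probe values were not well above background, and the vehicle array there was replicate 3, whose share of spots above background was the highest. Its part in the result was not tested.

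**Figure D2:**
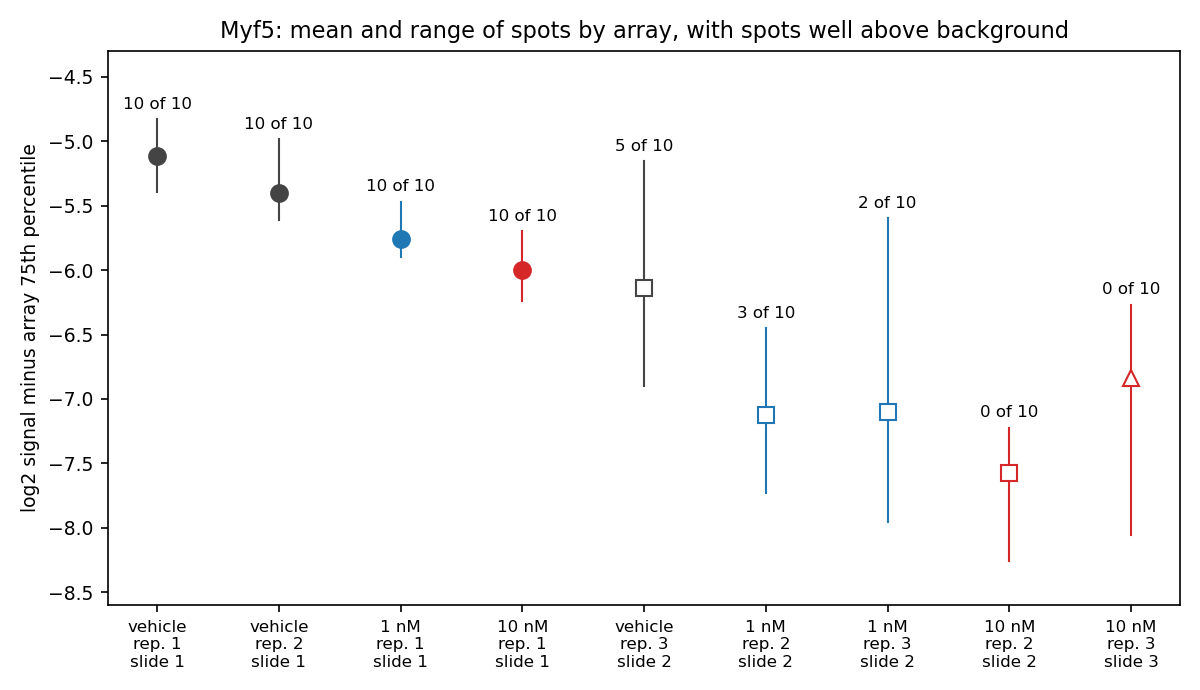
Myf5 probe level on each array (log2 signal minus the array's 75th percentile), ordered by slide and dose; symbols give the mean of 10 spots, bars their full range, open symbols arrays not well above background, and numbers the spots well above background. Slide 1 reads -6.00 to -5.12 with 10 of 10 spots above background, and the other slides read -7.57 to -6.14 with 0 to 5.

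Myog encodes myogenin, the bHLH factor needed for myoblasts to fuse in the embryo. Its level was 4.40, 4.50 and 4.37 in vehicle, 4.22, 4.33 and 4.31 at 1 nM and 3.91, 4.03 and 4.05 at 10 nM. The 3 groups did not overlap, with vehicle highest and 10 nM lowest. The difference was -0.13 at 1 nM (95% interval -0.30 to 0.03, limma adjusted p = 0.226), which did not pass the threshold. At 10 nM Myog fell by 0.43 (SE 0.07, 1.34-fold lower, adjusted p = 0.00287). From 1 nM to 10 nM the difference was -0.29 (95% interval -0.46 to -0.13), with adjusted p = 0.0796. The SD over the 10 spots of an array was 0.03 to 0.11.

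The direction of the Myog difference turned when arrays were scaled to their median, 1 of 24 other settings at each dose. Under 3 more it kept its direction at 10 nM but was not called. With arrays scaled to their median, all genes shifted up by a median of 0.38 at 1 nM and 0.40 at 10 nM. Myog then read 0.36 (limma adjusted p = 0.491) and 0.10 (adjusted p = 0.841). Without vehicle replicate 3, whose median stood apart, that scaling gave -0.31 at 10 nM (adjusted p = 0.203). Within slide 1 the difference at 10 nM was -0.54 and within slide 2 -0.34, with adjusted p = 0.134 and 0.0550. The ratio of Myog to Myod1 within an array, taken up after these values were seen, does not depend on such scaling. Set to a vehicle mean of 0, this log2 ratio was 0.10, -0.14 and 0.04 in vehicle, -0.81, -0.69 and -0.90 at 1 nM, and -1.45, -1.17 and -1.33 at 10 nM. It was lower on every treated array than on any vehicle array, and the doses did not overlap. The mean ratio was 57.5% of vehicle at 1 nM and 40.1% at 10 nM. The pair was chosen after Myod1 was seen to rise and Myog to fall, so this separation is a description.

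**Figure D3:**
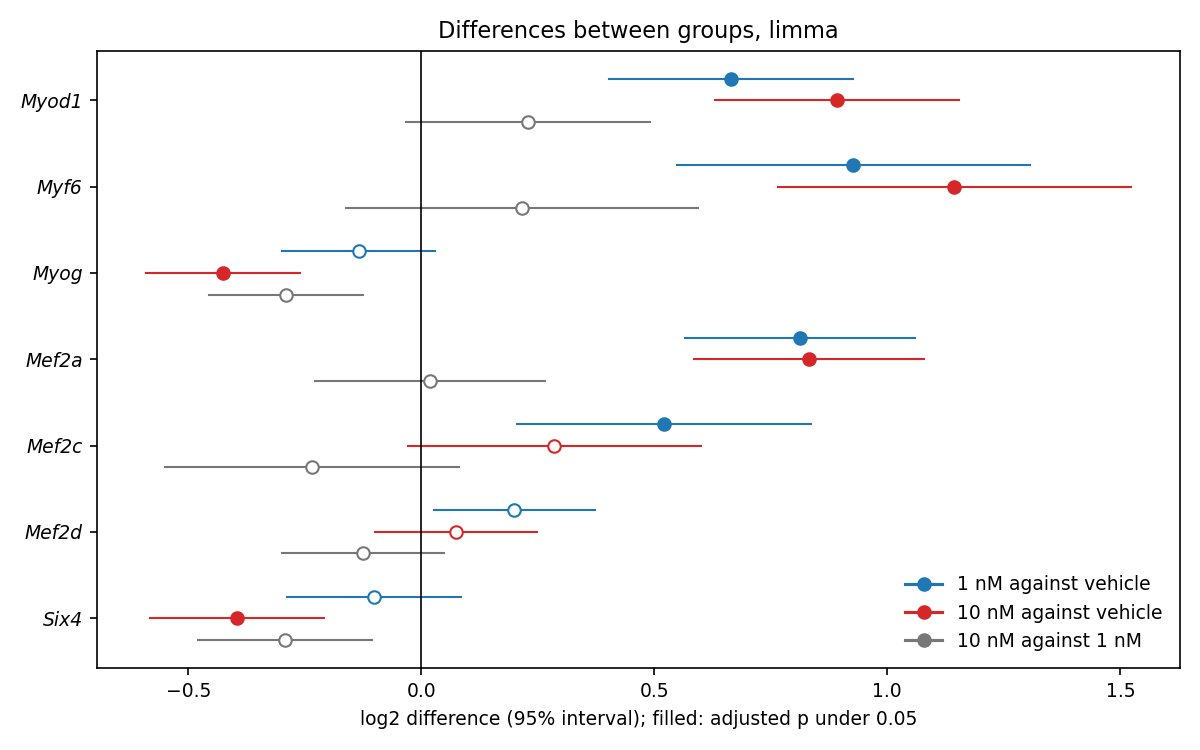
Log2 difference of each tested factor (horizontal axis) with its 95% interval for 1 nM against vehicle, 10 nM against vehicle and 10 nM against 1 nM; filled points have a limma adjusted p under 0.05. Myod1, Myf6 and Mef2a are filled and above 0 at both doses, Mef2c at 1 nM, and Myog and Six4 are filled and below 0 at 10 nM on this scale, a direction that turned when arrays were scaled to their median.

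Mef2a had 3 probes. The probe that stands for the gene read 1.06, 1.31 and 1.28 in vehicle, 1.99, 2.00 and 2.10 at 1 nM and 1.87, 2.11 and 2.17 at 10 nM. Every treated array was above every vehicle array, and the doses overlapped. Mef2a rose by 0.81 (SE 0.11, 1.76-fold, limma adjusted p = 0.00112) at 1 nM and 0.83 (1.78-fold, adjusted p = 0.000731) at 10 nM. The 2 doses differed by 0.02 (95% interval -0.23 to 0.27, adjusted p = 1). Within slide 1 the differences were 0.81 and 0.69, with adjusted p = 0.0952 and 0.103.

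The other 2 Mef2a probes lay upstream of it on the gene's strand. Probe A_65_P08239 read -1.82, -1.87 and -2.63 in vehicle, -1.15, -1.43 and -1.38 at 1 nM and -1.22, -1.25 and -1.14 at 10 nM. It did not overlap between vehicle and either dose, and it was called at both, by 0.79 (limma adjusted p = 0.0329) and 0.90 (adjusted p = 0.0148). Probe A_55_P1985159 read -0.14, 0.28 and -1.03 in vehicle, 0.41, -0.15 and -0.18 at 1 nM and 0.43, -0.08 and 0.34 at 10 nM. Its groups overlapped, with differences of 0.32 (adjusted p = 0.531) and 0.53 (adjusted p = 0.281) and an SD of 0.67 in vehicle. On both probes vehicle replicate 3 was the lowest array.

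Mef2c encodes a MEF2 factor needed in heart and skeletal muscle development, and the array had 1 probe for it. It read -0.37, 0.00 and -0.53 in vehicle, 0.21, 0.22 and 0.23 at 1 nM and 0.00, -0.13 and 0.09 at 10 nM. The 1 nM arrays lay above all others, while 10 nM overlapped vehicle through vehicle replicate 2. Mef2c rose at 1 nM by 0.52 (SE 0.13, 1.43-fold, limma adjusted p = 0.0280), and the difference at 10 nM was 0.29 (95% interval -0.03 to 0.60, adjusted p = 0.155). From 1 nM to 10 nM it was -0.23 (adjusted p = 0.664), so the doses were not shown to differ. Over 24 other settings the adjusted p at 1 nM ran from 0.00252 to 0.459, and the call was lost in 14, among them the replicate number as a block (adjusted p = 0.0656). It was also lost without vehicle replicate 1 (0.0853), without vehicle replicate 3 (0.0534) and without 1 nM replicate 1, 2 or 3 (0.0703, 0.0864 and 0.0875). At 10 nM the gene was called without vehicle replicate 2, at 0.44 (adjusted p = 0.0118).

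Mef2d also had 3 probes. The one that stands for the gene read 3.32, 3.39 and 3.38 in vehicle, 3.50, 3.61 and 3.59 at 1 nM and 3.32, 3.52 and 3.47 at 10 nM. The 1 nM arrays lay above the vehicle arrays and the 10 nM arrays overlapped both. The differences were 0.20 (95% interval 0.03 to 0.37, limma adjusted p = 0.0988) and 0.07 (-0.10 to 0.25, adjusted p = 0.473), and neither passed. The exon-joining probe differed from vehicle by -0.03 and -0.08, and probe A_55_P1966958 by -0.01 and -0.23, with overlapping groups and no call. No Mef2d probe passed the threshold, so the 3 MEF2 genes read differently here, Mef2a called at both doses, Mef2c at 1 nM and Mef2d at neither. Whether the genes differ from each other was not tested.

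**Figure D4:**
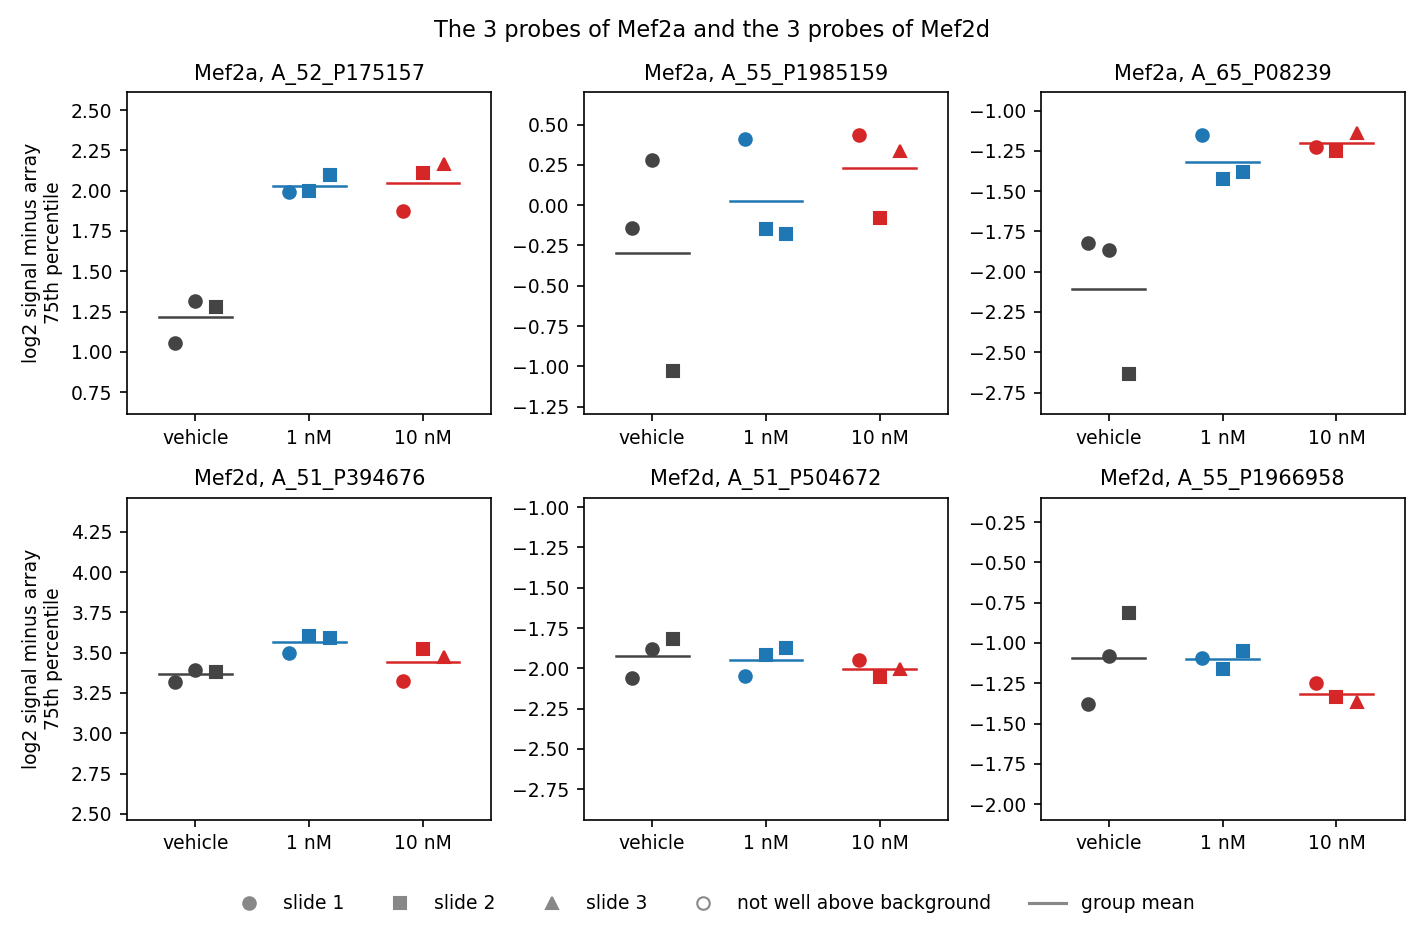
Level of each Mef2a probe (upper row) and Mef2d probe (lower row) on each array (log2 signal minus the array's 75th percentile), by dose and slide, with group means as lines and the probe standing for the gene at left. The left and right Mef2a probes separate vehicle from both doses, the middle one spans -1.03 to 0.28 in vehicle alone, and the 10 nM arrays overlap vehicle on each Mef2d probe.

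Six4 read 1.40, 1.42 and 1.25 in vehicle, 1.23, 1.33 and 1.21 at 1 nM and 1.07, 0.91 and 0.91 at 10 nM. The 10 nM arrays were below all 6 others, and 1 nM overlapped vehicle. The difference was -0.10 at 1 nM (95% interval -0.29 to 0.08, limma adjusted p = 0.401). At 10 nM Six4 fell by 0.40 (SE 0.08, 1.32-fold lower, adjusted p = 0.00747). Scaling to the array median turned the values to 0.39 (limma adjusted p = 0.456) and 0.13 (adjusted p = 0.797). All genes shifted up there by a median of 0.38 and 0.40. Quantile normalization gave 0.013 and -0.29 (adjusted p = 0.242). Without vehicle replicate 3 the median scaling gave -0.31 at 10 nM (adjusted p = 0.124). Within slide 2 the 10 nM difference was -0.34 (adjusted p = 0.0862).

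Of 18 listed partners and inhibitors of the bHLH factors, 16 were measured, and 3 rose and 9 fell at 1 nM, 3 and 10 at 10 nM. The list's median difference was -0.29 and -0.51, against -0.09 and -0.11 over all genes, of which 11.8% fell at 1 nM and 14.7% at 10 nM. Mdfi, which encodes I-mfa, a protein that holds myogenic bHLH factors out of the nucleus, rose by 3.47 (11.1-fold, limma adjusted p = 3.36e-05) and 4.03 (16.3-fold, adjusted p = 9.76e-06). The Id proteins, which bind E proteins and keep them from DNA, moved apart. Id3 rose by 2.15 and 2.20 (4.43-fold and 4.59-fold), while Id2 fell (differences of -0.82 and -1.67). Msc, which encodes the bHLH repressor musculin, fell (differences of -2.91 and -2.72, 7.50-fold and 6.59-fold lower). The others called at both doses, named after their values were seen, were the repressors Hes1, Hey1, Snai1, Snai2, Bhlhe40 and Twist2 and the E protein gene Tcf3, all lower, and a second E protein gene, Tcf4, higher. Scaled to the array median, the list's median was 0.20 and 0.02, against 0.38 and 0.40 over all genes. Under that scaling 1 gene was called lower at each dose.

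The 18 listed upstream genes were homeobox and paired-box factors, Eya and Dach cofactors, and the TEAD factors Tead1 and Tead4. Of these 15 were measured, with 2 called higher and 1 lower at 1 nM, and 2 and 2 at 10 nM (medians 0.15 and 0.07). These counts are near the shares over all genes, 11.8% each way at 1 nM and 15.4% and 14.7% at 10 nM. At 1 nM they were 1 and 0 without 1 nM replicate 2, 1 and 1 without 1 nM replicate 3, 4 and 1 without vehicle replicate 3, and 2 and 2 without 10 nM replicate 1 or 2. Scaled to the array median, 0 and 0 were called at 1 nM and 1 and 1 at 10 nM, with medians of 0.63 and 0.56. Over all genes the medians under that scaling were 0.38 and 0.40. Eya3, a cofactor of Six4, rose by 0.71 (limma adjusted p = 0.00154) and 0.92 (adjusted p = 0.000288). Pax7, the satellite cell factor upstream of Myf5 and Myod1, fell, with differences of -0.57 (adjusted p = 0.0183) and -0.91 (adjusted p = 0.00142), and the call at 1 nM was lost without 1 nM replicate 2 (adjusted p = 0.0722) or 3. Meox1 passed the background mark on 3 vehicle, 2 of 3 low-dose and 0 of 3 high-dose arrays. It was kept through vehicle alone and was at least 4.19-fold lower at 10 nM. Its call there (adjusted p = 0.00292) rests on 10 nM values that were not well above background. Such a bound sets the brighter group's mean against the fainter group's arrays. On each of these the larger of its own value and the faintest signal well above background was taken.

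All 20 listed cofactors of MEF2 and MyoD were measured, and 4 rose and 2 fell at 1 nM, 5 and 2 at 10 nM, with medians of 0.08 and 0.10. Over all genes 11.8% rose and 11.8% fell at 1 nM and 15.4% and 14.7% at 10 nM. Vgll2, a TEAD cofactor of muscle, fell, with differences of -0.82 (limma adjusted p = 0.000161) and -0.88 (adjusted p = 7.61e-05). Nfatc1, a calcineurin-dependent factor, fell (differences of -0.51 and -0.52), but read 0.012 at 10 nM when scaled to the array median. Ncoa2, a nuclear receptor coactivator, rose by 0.35 and 0.49, and without 1 nM replicate 2 the lower dose did not pass (adjusted p = 0.0571). Smarcd3, the BAF60C subunit that brings chromatin remodelling to MyoD, rose by 0.30 (adjusted p = 0.0278) and 0.34 (adjusted p = 0.0122), and its call at 1 nM was lost under 14 of 24 other settings, among them without 1 nM replicate 3 (adjusted p = 0.0978), and that at 10 nM under 6. The class IIa deacetylases Hdac4, Hdac5, Hdac7 and Hdac9, which repress MEF2, did not pass at either dose and were singled out after their values were seen. The number called higher at 1 nM was 0 without 1 nM replicate 2, 1 without 1 nM replicate 3, and 2 without 1 nM replicate 1 or 10 nM replicate 2. At 10 nM it was 2 without 10 nM replicate 2 or 3 and 3 without 10 nM replicate 1 or 1 nM replicate 2. Scaled to the array median, 0 rose and 0 fell at 1 nM and 1 and 0 at 10 nM, with medians of 0.57 and 0.63. Over all genes the medians under that scaling were 0.38 and 0.40.

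All 30 listed muscle targets of these factors were measured. At 1 nM 16 rose and 0 fell with a median of 0.40, and at 10 nM 15 rose and 1 fell with a median of 0.36. Over all genes 11.8% rose at 1 nM and 15.4% at 10 nM, with medians of -0.09 and -0.11. Mb (myoglobin) rose by 0.73 (1.66-fold, limma adjusted p = 0.00207) and 0.79 (1.73-fold, adjusted p = 0.00103). Casq2, a calcium store of the sarcoplasmic reticulum, rose by 0.69 and 0.45 (not called at 10 nM without 10 nM replicate 2, adjusted p = 0.0514), Mybph, a myosin binding protein, by 0.50 and 0.47, and Chrnd, an acetylcholine receptor subunit, by 0.46 and 0.45. The 1 that fell at 10 nM was Mymx, by 0.63 (adjusted p = 0.00261), which encodes the fusion peptide myomixer and was chosen after its values were seen. Mymk, the other fusion gene, read 0.32 and 0.10 without a call. The target counts moved with the processing. Without vehicle replicate 3 they were 13 higher and 1 lower at 1 nM, and without 1 nM replicate 2 or 3 they were 8 or 7 higher and 0 lower. Scaled to the array median, 0 and 2 were called higher. The list's median was then 0.89 at both doses, against 0.38 and 0.40 over all genes. Within slide 1 the list's medians were 0.25 and 0.38, against 0.004 and 0.09 over all genes.

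**Figure D5:**
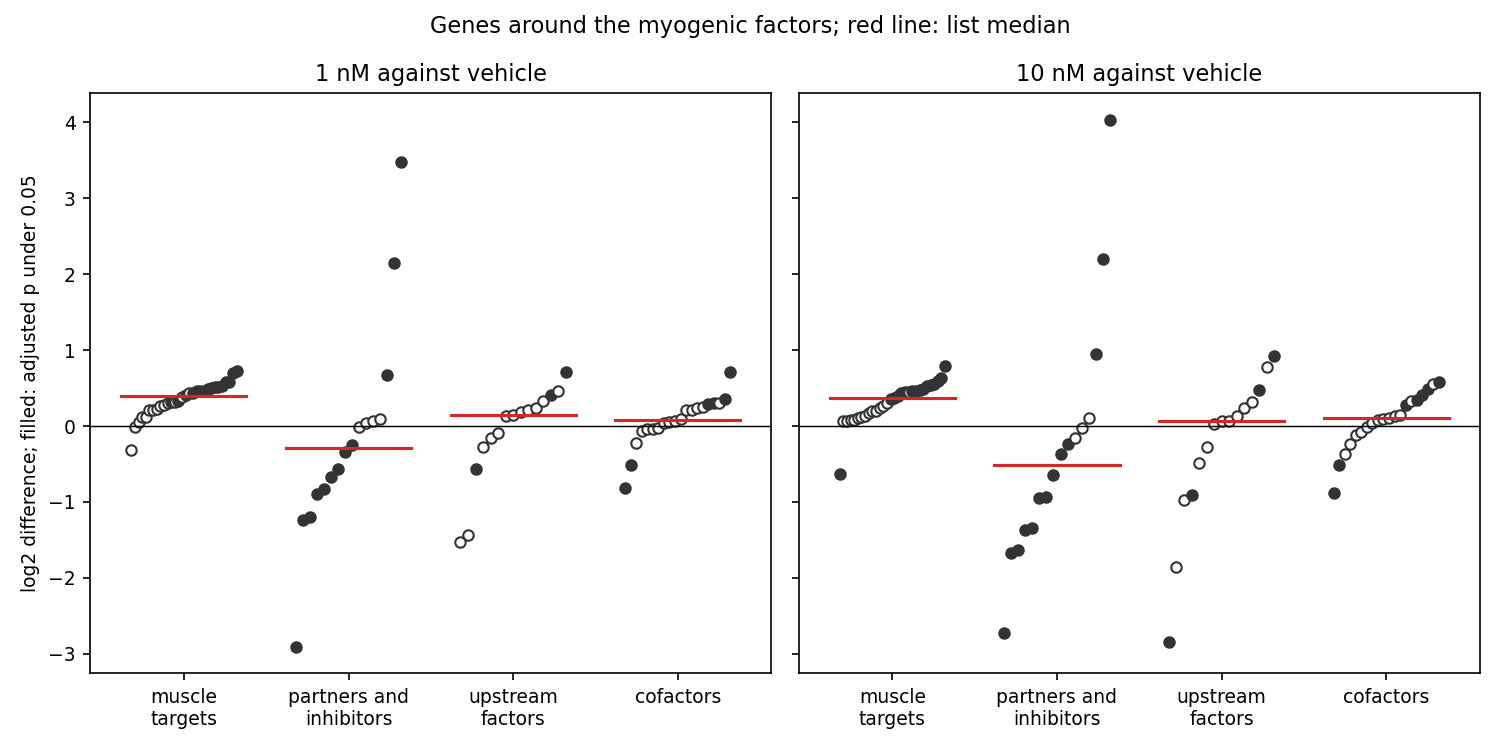
Log2 difference of each measured gene (points, ordered within a list, filled where the limma adjusted p is under 0.05) for 4 gene lists around the myogenic factors, at 1 nM (left) and 10 nM (right) against vehicle; red lines are list medians. Muscle targets lie mostly above 0 with medians of 0.40 and 0.36, and the partners and inhibitors spread from -2.91 to 3.47 at 1 nM and from -2.72 to 4.03 at 10 nM.

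Markers of dividing cells moved with these results. All 10 listed proliferation markers fell at 1 nM and at 10 nM, against 11.8% and 14.7% of all genes. From 1 nM to 10 nM 7 fell further, against 2.21% of all genes. The log2 differences were -4.48 and -5.47 for Mki67, -4.27 and -5.02 for Birc5, -4.06 and -4.70 for Ccna2, and -3.54 and -4.16 for Kif20a. Their summed level, relative to the 75th percentile, was 54.7 to 59.0 in vehicle, 12.9 to 13.3 at 1 nM and 12.7 to 13.0 at 10 nM. Probes with a high signal weigh most in such a sum, here Pcna, with differences of -0.62 and -0.54, while the list's median difference was -3.79 and -4.43. Scaled to the array median, 9 of 10 fell at each dose. The part of dividing cells in the differences of Myod1, Myf6, Mef2a and Myog was not tested.

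Among all genes tested, 11.8% rose and 11.8% fell at 1 nM, and 15.4% rose and 14.7% fell at 10 nM. Of 9 measured adipocyte markers 3 rose at 1 nM and 4 at 10 nM, Cebpa, Lpl and Fabp4 and then Adipoq, and 0 fell. Within slide 2, where the vehicle array was replicate 3, 3 rose and 5 fell at 1 nM. Their summed level was 1.17 to 2.41 in vehicle, 4.45 to 4.59 at 1 nM and 9.19 to 9.71 at 10 nM. Fabp4 and Adipoq exceeded background clearly on all treated arrays but on 1 of the 3 from vehicle. Both thus passed the filter only through the treated groups, where they are high, and their calls rest partly on vehicle values near background. Among markers well above background on all arrays, 4 were measured and 2 rose at each dose. Of 7 osteoblast markers 2 rose and 2 fell at 1 nM and 1 rose and 3 fell at 10 nM. Spp1 rose by 0.59 and 0.72, and Runx2 fell (differences of -0.85 and -1.66). Dmp1 was kept through vehicle alone. It was at least 22.4-fold lower at 10 nM, where it was well above background on 0 of 3 arrays. Phex was higher by 0.90 at 1 nM and lower by 0.59 at 10 nM (log2 difference -0.59). The summed level of the osteoblast list was 11.55 to 11.95 in vehicle, 17.0 to 17.5 at 1 nM and 18.2 to 19.2 at 10 nM. Spp1 carried most of that sum, and the list's median difference was -0.19 and -0.59. Of 8 endothelial and blood markers, 1 was called, Tek, higher at both doses, which is near the share over all genes. It was well above background on 1 of 3 vehicle arrays and all treated arrays, so it passed the filter through the treated groups. With non-uniform spots kept, or in the submitters' series table, 0 of 8 were called at either dose. The summed levels of this list overlapped across groups at 6.37 to 9.79. The part of such cells in the myogenic factors was not tested.

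Genes whose profile over the 9 arrays was most like a member's were sought among 14633 genes with an official symbol, by the root mean square difference after centring each gene. For Myod1 they were B3galt4 (0.0562), Zfp346 and Ablim1. For Myf6 they were Trdn (0.0744), which encodes triadin of the sarcoplasmic reticulum, Lrrc14b and Prickle1. For Mef2a they were Ice1 (0.0715), Hoxa10 and Slc25a29, and for Mef2c Pstpip1 (0.0456), Itgb1bp2, which encodes the muscle protein melusin, and Copg2. The group means of Myog, Mef2d and Six4 spanned under 0.5 and none were sought for them. All such profiles share the 9 arrays and their scaling.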

How the data were processed

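Total RNA of C2C12 cells was measured on 9 Agilent 1-colour arrays of 44397 spots. Per the file headers, the deposited scanner columns are linear intensity values and marks of other kinds (control, non-uniform, saturated, well above background). Agilent Feature Extraction 11.5.1.1 was used, per the submitters' processing notes. These also name limma. The series table, as deposited, gives log2 values that correlated at 0.9999 with normexp and quantile values made here; it was an alternative.

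Values are log2 processed signals, scaled by subtracting the 75th percentile of their array. Control and non-uniform spots were left out and spots of 1 probe averaged. Probes well above background throughout at least 1 group were kept (28339 of 39429), and a gene was its kept probe with the highest mean. Kept probes were named by accession (21033), symbol (2168) or the file's name (5138), with RefSeq's GRCm38.p6 table used for names alone. Probe coordinates are mm9. Limma 3.58.1 in R 4.3.3 (lmFit, eBayes) fitted the 3 groups together with no block. Adjustment was by Benjamini-Hochberg over all genes with a threshold of 0.05. The number of arrays limits the precision, and the p-values measure the spread between replicates that the design text calls biological.

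The members, lists and naming rule were chosen with earlier results of these data known. The rule named all members, up to 4 called genes per list with the smallest p, and the 3 nearest profiles of members whose group means spanned at least 0.5. One gene that it named is not reported here. Deviations of same-numbered arrays correlated at 0.484, 0.329 and 0.144 between the doses and at 0.05, -0.02, -0.01 and -0.19, -0.19, -0.42 with vehicle. Same-numbered arrays were thus alike between the doses alone. The 2 dose arrays of replicate 1 shared a slide, as did those of replicate 2, and those of replicate 3 did not. Pairing by number and sharing of a slide cannot be told apart here. No 2 arrays were alike (closest pair SD 0.251).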

Additional observations from a re-analysis of the deposited data

How the results depend on the processing

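Of the differences of the members and other named genes, 19 values under other settings changed direction. Myog and Six4 turned under median scaling, to 0.36 and 0.39 at 1 nM and 0.10 and 0.13 at 10 nM, as did Nfatc1 at 10 nM (0.012). Six4 at 1 nM was 0.013 after quantile normalization and 0.020 within slide 2. Mef2d at 10 nM was -0.065 in the series table, -0.078 as the mean of its probes and -0.036 within slide 1. Phex at 10 nM was 0.73 after quantile normalization and 0.16 in the series table. The dose difference of Mef2a, 0.02, was -0.063 with normexp, -0.015 with quantile normalization, -0.020 with the slide as a block, -0.095 in the series table, -0.12 within slide 1, and -0.040 to 0.11 with 1 array left out. The cause was not tested.

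Members called numbered 4 at 1 nM, 2 with quantile normalization or median scaling and 0 within slide 1. At 10 nM they numbered 5, 3 with either scaling, 3 with median scaling and vehicle replicate 3 left out (added after seeing the data) and 0 within slide 1. Between the doses 1, Myog, was called with a trended, robust spread (adjusted p = 0.0296). Within slide 1 each dose had 1 array, assumed to vary like the vehicle arrays. Within slide 2 vehicle and 10 nM had 1 array each, assumed to vary like the 1 nM arrays, and the vehicle array was replicate 3.

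Genes called at 1 nM numbered 5188, and 2803, 1513, 1584 and 10445 with quantile normalization, median scaling, within slide 1 and within slide 2. At 10 nM they numbered 6624, and 3981, 2532, 2575 and 10016. The share called higher was 49.9% and 51.2%, and 63.2% and 64.2% with quantile normalization, 62.1% and 67.1% with median scaling. With the slide as a block it was 46.1% and 50.5%. Between the doses it was 41.9%, and 69.0% with median scaling. Between the doses 837 were called, 122 with quantile normalization, 58 with median scaling, 368 in the series table, 535 without a filter, 1351 with only the groups compared, 355 with the slide as a block, 5 within slide 1 and 0 within slide 2, and 366 to 1267 with 1 array left out (1267 without vehicle replicate 3). With the replicate number as a block, 459 were called and 0 members. Same-numbered arrays were alike between the doses alone, where number and slide cannot be told apart. Beside Mef2c at 1 nM, the block ended no member's call.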
